A study of Mus musculus with 6 samples.

Results

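A set of 10 genes used as markers of mouse pluripotency, not all of them particular to the naive state, was followed through 6 RNA-seq libraries: Dppa2, Dppa3, Dppa4, Dppa5a, Zfp42, Tcl1, Tdh, Pecam1, Spp1 and Fgf4. They were taken by symbol, 10 of the 25170 symbols in the deposited table, and all 10 were among the 11785 genes tested, those whose mean reached 1 FPKM. FPKM divide a gene's fragments by its transcript length and by the library's mapped total, so levels can be set side by side between genes. The cells were E14, an established mouse embryonic stem cell (ESC) line, either wild type (WT) or carrying a knockout (KO) of Hnrnpf, which encodes an RNA-binding protein that takes part in splicing. The groups were KO cells 4 days after removal of leukemia inhibitory factor (LIF), WT cells 4 days after LIF removal, KO cells kept in LIF and WT cells kept in LIF. All 4 were grown in fetal bovine serum, and the LIF medium held 1000 units/mL. Each KO group had 2 libraries, here called KO 1 and KO 2, and each WT group had 1. Whether the libraries of a group are separate cultures or clones is not in the labels, and neither is whether KO 1 is one clone in the 2 media. P-values therefore reflect only how far these libraries vary, possibly for technical reasons, and the lone WT library of a medium is assumed to vary like the others.

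Naive pluripotency is the state of the inner cell mass before implantation, and LIF holds mouse ESCs near it by activating STAT3. When LIF is withdrawn, autocrine FGF4 acts through ERK to move cells into a formative, post-implantation-like state, and the naive genes are shut down. Zfp42 (Rex1), Dppa3 (Stella), Tcl1 and Pecam1 are read as markers of the naive state. Fgf4 and Dppa4 belong to pluripotent cells more broadly, and Fgf4 is itself the signal that starts the exit.

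The ESC label was checked with 3 defining genes. Pou5f1, which encodes OCT4, stood at 587 and 683 FPKM in KO and 960 in WT after LIF removal, against 1002 and 1053 in KO and 1145 in WT with LIF. Sox2 and Nanog were also present in every library, at 144 FPKM or more for Sox2 and 126 or more for Nanog. Hnrnpf itself was 95.2 and 27.8 FPKM in KO and 335 in WT after LIF removal, and 98.7 and 37.1 in KO and 342 in WT with LIF, so all 4 KO libraries lay below both WT libraries. Library sums of FPKM ran from 456155 to 556318, and the depth relative to the WT library with LIF, read from the steps of low values, lay between 0.843 and 1.08.

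Promoter sequences are shown for 3 of the genes: Tcl1 and Zfp42, whose promoters hold 1 or 2 of the 4 motifs searched for, and Spp1, whose first promoter holds none. Each is the 250 bases before the RefSeq start on GRCm38.p6, 5′ to 3′ on the gene's strand, and capitals mark motif matches. They lie at chr12:105222738-105222987 (minus strand) for Tcl1, chr8:43307010-43307259 (minus strand) for Zfp42 and chr5:104434861-104435110 (plus strand) for Spp1.
Tcl1: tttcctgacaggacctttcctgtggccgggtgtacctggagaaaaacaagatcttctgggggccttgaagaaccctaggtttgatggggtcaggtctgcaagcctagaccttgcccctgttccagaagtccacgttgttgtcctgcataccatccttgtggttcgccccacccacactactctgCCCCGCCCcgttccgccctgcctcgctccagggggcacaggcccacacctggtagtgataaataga
Zfp42: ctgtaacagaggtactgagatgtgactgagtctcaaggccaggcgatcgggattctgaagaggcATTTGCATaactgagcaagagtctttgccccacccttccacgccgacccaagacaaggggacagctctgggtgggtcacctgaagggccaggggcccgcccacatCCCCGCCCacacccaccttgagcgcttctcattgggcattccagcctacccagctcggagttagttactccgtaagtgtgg
Spp1: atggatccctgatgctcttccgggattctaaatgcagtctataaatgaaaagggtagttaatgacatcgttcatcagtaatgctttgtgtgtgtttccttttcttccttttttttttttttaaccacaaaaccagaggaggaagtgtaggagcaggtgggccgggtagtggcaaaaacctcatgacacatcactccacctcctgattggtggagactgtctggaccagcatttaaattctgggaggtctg

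For motifs, 4 were searched on both strands: the octamer ATTTGCAT bound by OCT factors, the GC box GGGCGGGG bound by SP and KLF factors, the STAT palindrome TTCNNNGAA and the ESRRB element TCAAGGTCA. The Zfp42 promoter held the octamer 186 bases before the start, a motif found in 1.60% of the 32851 promoters in the table, and a GC box 81 bases before it, found in 16.1%. Tcl1 held a GC box 66 bases before its start. The window before a second Spp1 start, chr5:104435942-104436191, had an octamer 210 bases before that start. Neither the STAT palindrome (7.02% of promoters) nor the ESRRB element (0.387%) occurred in these windows or in that of Fgf4, which held none of the 4 motifs. G and C made up 57.6% of the bases for Tcl1, 58.4% for Zfp42, 43.6% for the first Spp1 promoter and 71.2% for Fgf4, against a median of 52.4% over all promoters. The RefSeq table was matched by symbol and gave these 4 of the 10 genes.

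Dppa5a was the highest of the 10 genes in every library. Below it, Zfp42 and Spp1 changed places, with Zfp42 above Spp1 in both WT libraries and in KO 1 of both media, and Spp1 above Zfp42 in KO 2 of both media. Tdh came next in all 6 libraries. The lowest gene was Tcl1 in both KO libraries after LIF removal, Pecam1 in WT cells after LIF removal and in both KO libraries with LIF, and Dppa3 in WT cells with LIF. The plot of levels by library shows this spread.

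**Figure D1:**
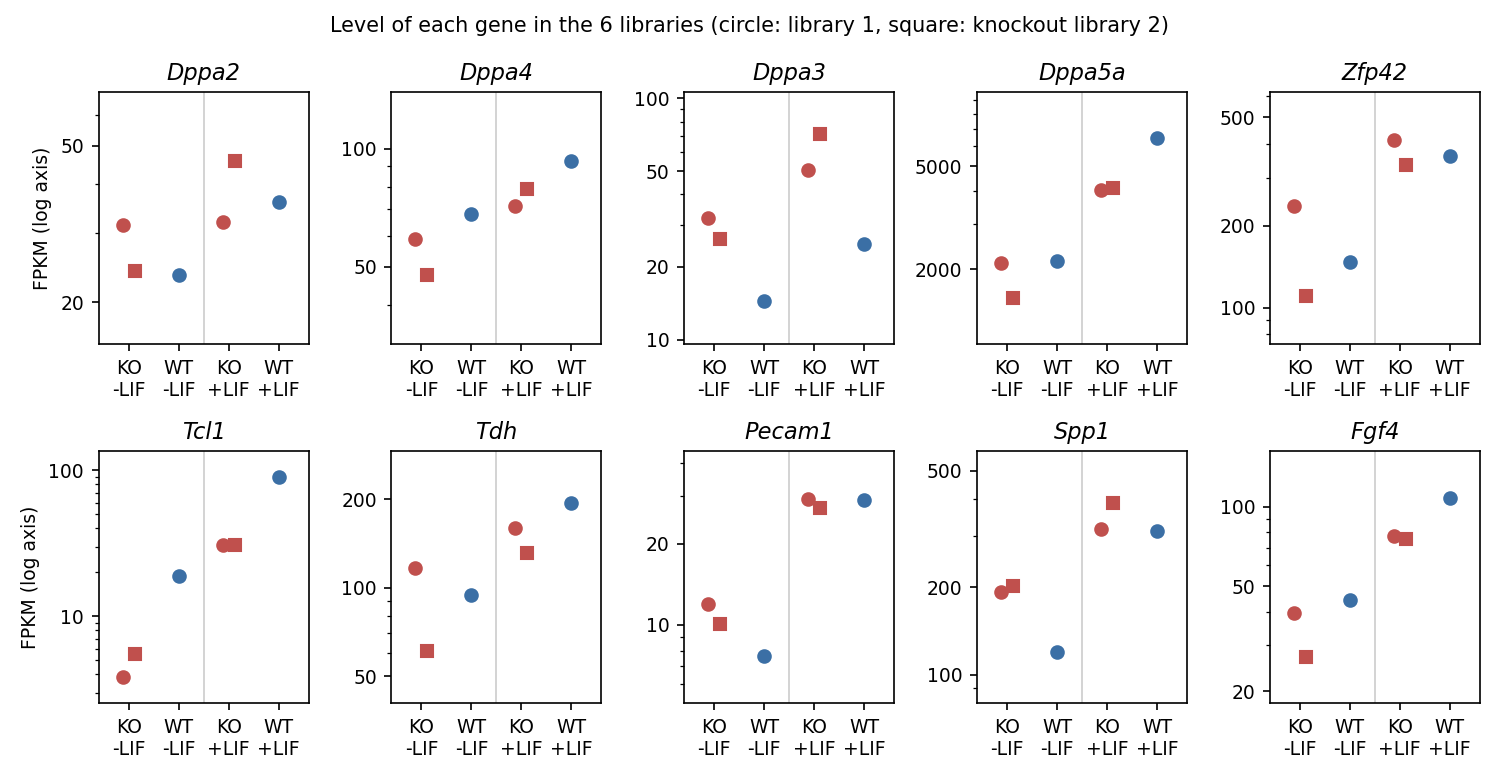
FPKM of each gene (log axis, scaled separately for each gene) in KO and WT cells after LIF removal (-LIF) and with LIF (+LIF). Circles are library 1 and squares KO library 2. For 9 of the 10 genes all libraries after LIF removal lie below all libraries with LIF, and for Tcl1 and Dppa3 the KO and WT libraries of a medium stand apart.

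Nearly all of the genes were lower after LIF removal. Over both genotypes, 9 of the 10 genes were called lower and none higher by limma at an adjusted p under 0.05, where 12.7% of all tested genes were called lower. The median difference, after LIF removal minus with LIF on the log2(FPKM + 1) scale, was -1.12 over the 10 genes and -0.03 over all tested genes. All 3 libraries after LIF removal lay below all 3 with LIF for 9 of the genes, Dppa3 being the exception, against 16.8% of all tested genes. Dppa2, although its libraries did not overlap, did not pass the test.

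Dppa2 and Dppa4 encode paired SAP-domain proteins that bind chromatin together and prime early embryonic and germline genes. They lie 9671 bases apart on chromosome 16, Dppa4 at 48283733 to 48294237 and Dppa2 at 48303908 to 48319723 (GRCm38, GENCODE). Dppa2 stood at 31.4 and 24.0 FPKM in KO and 23.5 in WT after LIF removal, against 31.9 and 45.7 in KO and 35.9 in WT with LIF. The highest library after removal and the lowest with LIF, both KO 1, were close. The difference was -0.50 (SE 0.16, limma adjusted p = 0.0595), and it passed without KO 1 with LIF (adjusted p = 0.0345) or without KO 1 after removal (0.0483), and with each chromosome centred in each library (0.0458).

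Dppa4 had 59.0 and 47.7 FPKM in KO and 68.1 in WT after LIF removal, against 71.4 and 79.0 in KO and 92.8 in WT with LIF. In each medium the WT library was the highest. Dppa4 fell by 0.48 (SE 0.11, limma adjusted p = 0.0220), the smallest fall among the 9 called genes. The call was lost without WT with LIF (limma adjusted p = 0.0967), WT after removal (0.0961), KO 2 with LIF (0.0688) or KO 2 after removal (0.0699), and after quantile normalization (0.0513).

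Of 25 genes listed as depending on DPPA2 and DPPA4 or as belonging to the same early embryonic and germline programme, 23 were in the table and 7 were tested. After LIF removal 2 were lower and none higher, the germ cell transcription factor Sohlh2 (-1.28, limma adjusted p = 0.00717) and the testis protease Prss50 (-1.28, adjusted p = 0.0204). Over all tested genes 12.7% were called lower. The list's median was -0.53. Between genotypes 1 was called, where 5.79% of all tested genes were called higher in KO cells. This was the germ cell kinase Stk31, which was higher in KO cells over both media (0.83, limma adjusted p = 0.0435). Its levels were low, 2.62 and 2.34 FPKM in KO and 1.18 in WT after removal, against 3.46 and 5.53 in KO and 1.72 in WT with LIF. The list's median between genotypes was 0.42. Whether the level of its chromosome has a part in the Stk31 call was not tested.

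Dppa3, at 122626410 to 122630272 on chromosome 6, encodes a small protein that guards DNA against demethylation in the zygote and keeps UHRF1 off chromatin. Its levels were 32.1 and 26.2 FPKM in KO and 14.4 in WT after LIF removal, against 50.5 and 70.9 in KO and 25.0 in WT with LIF. Dppa3 was lower after removal in each genotype, but KO cells without LIF still held more of it than WT cells with LIF. Across both genotypes Dppa3 fell by 0.93 (SE 0.16, limma adjusted p = 0.00646).

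Between genotypes Dppa3 was the only one of the 10 genes called higher in KO cells, where 5.79% of all tested genes were called higher. With WT of the same medium as 100%, the KO libraries stood at 223% and 182% after LIF removal and at 202% and 284% with LIF. The difference, KO minus WT over both media, was 1.10 (SE 0.16, limma adjusted p = 0.0111). The call was lost without either WT library. Such a fit compares genotypes in the other medium only, so it repeats the 4-group fit given below and is no separate check. The difference was 0.96 without WT with LIF and 1.23 without WT after removal. Over all tested genes, 1232 were called in this contrast, but 7 without WT with LIF and 5 without WT after removal. Among the listed, neighbouring and pattern-matched genes other than these 10, 25 were called between genotypes over both media, and none of the 25 was called by limma without WT with LIF or without WT after removal. In the 4-group fit the difference was 0.96 after LIF removal (adjusted p = 0.157) and 1.23 with LIF (0.103), neither past the threshold.

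Neither flanking gene of Dppa3 was called between genotypes. Gdf3, a TGF-beta family ligand 16323 bases away, had a KO minus WT difference of -0.31 (limma adjusted p = 0.275), and Nanog, 77217 bases away on the other side, one of 0.12 (adjusted p = 0.686). Over the 77 tested genes within 5 Mb of Dppa3 the median KO minus WT difference was -0.05 and -0.02 in KO 1 and KO 2 after removal, and 0.02 and 0.05 with LIF. Over the 537 tested genes of chromosome 6, of which 105 were called higher in KO cells and 14 lower, it was 0.15 and 0.17 after removal and 0.09 and 0.15 with LIF, where Dppa3 had 1.10 and 0.82 after removal and 0.99 and 1.47 with LIF. With each chromosome centred in each library the Dppa3 difference was 0.94 (limma adjusted p = 0.0175). After LIF removal Nanog fell by 0.50 (adjusted p = 0.0470), while Gdf3 had a difference of -0.15 (adjusted p = 0.516).

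Among 8 partners of DPPA3 in DNA methylation and nuclear transport, 7 were tested. Uhrf1, which recruits the maintenance methyltransferase, was called lower in both contrasts, with -0.58 after LIF removal (limma adjusted p = 0.00861) and -0.46 in KO against WT (adjusted p = 0.0386). It stood at 66.0 and 65.6 FPKM in KO and 103 in WT after removal, against 109 and 105 in KO and 131 in WT with LIF. Tet2, a methylcytosine oxidase, fell after LIF removal (-1.10, limma adjusted p = 0.0165). Of all tested genes 12.7% were called lower after LIF removal and 4.67% lower in KO cells. No other tested member of the list was called in either contrast, Dnmt1 included. Its median was -0.37 after LIF removal and -0.16 between genotypes.

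Primordial germ cells also carry DPPA3, so their markers were read beside it. All 9 listed markers were tested, and in KO against WT 1 was higher, Ifitm3 (1.29, limma adjusted p = 0.00184), and 1 lower, Prdm1 (-1.01, adjusted p = 0.0166), the factor that specifies these cells. In the same contrast 5.79% of all tested genes were called higher and 4.67% lower. The summed level of the list was 285 and 293 FPKM in KO and 136 in WT after LIF removal, against 360 and 386 in KO and 214 in WT with LIF, most of it Ifitm3. None of the 9 was at 0 in all libraries. Their part in the Dppa3 result was not tested.

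Dppa5a, at 78367052 to 78368177 on the minus strand of chromosome 9, encodes a KH-domain RNA-binding protein of pluripotent and germ cells. It had 2117 and 1542 FPKM in KO and 2155 in WT after LIF removal, against 4062 and 4115 in KO and 6460 in WT with LIF. With LIF its rank among all genes was 3 in each library and made up 0.807% and 0.815% of the FPKM sum in KO and 1.16% in WT. After removal its rank was 12 and 19 in KO and 17 in WT. Dppa5a fell by 1.31 (SE 0.14, limma adjusted p = 0.00160) over both genotypes. KO against WT gave -0.46 (adjusted p = 0.0967) and turned to 0.03 after quantile normalization. Without KO 1 after removal the difference between genotypes was -0.58 (adjusted p = 0.0344).

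Ooep, a maternal-effect gene of the same KH-domain family 7932 bases from Dppa5a, moved like it. Ooep stood at 18.2 and 13.2 FPKM in KO and 20.6 in WT after LIF removal, against 44.5 and 43.2 in KO and 69.1 in WT with LIF. It fell by 1.53 after removal (SE 0.14, limma adjusted p = 0.00110), and its KO minus WT difference was -0.52 (adjusted p = 0.0627). On the other side, 157703 bases away, the glutathione transferase gene Gsta4 was lower after removal (-0.70, adjusted p = 0.00307) and lower in KO cells (-0.55, adjusted p = 0.0173).

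Zfp42, at 43295063 to 43306980 on the minus strand of chromosome 8, encodes the zinc finger protein REX1. Its levels were 236 and 111 FPKM in KO and 147 in WT after LIF removal, against 412 and 334 in KO and 361 in WT with LIF. The KO libraries straddled WT in both media. Zfp42 fell by 1.23 (SE 0.24, limma adjusted p = 0.0121) after LIF removal, with the widest error of the 10 genes. The call was lost without WT with LIF (adjusted p = 0.0765) or WT after removal (0.0768). Between genotypes the difference was 0.09 (adjusted p = 0.859), and it was -0.15 without KO 1 after removal. KO 2 held 46.8% of the KO 1 level after removal and 81.0% with LIF.

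Chromosome 8 as a whole differed between the KO libraries. Over its 656 tested genes the median KO minus WT difference was -0.05 in KO 1 and -0.39 in KO 2 after removal, and 0.07 and -0.35 with LIF. For Zfp42 the same differences were 0.68 and -0.41 after removal, and 0.19 and -0.11 with LIF. The neighbour Triml2, 101182 bases away, was also lower after LIF removal (-1.42, limma adjusted p = 0.0129). Whether the level of the chromosome has a part in the Zfp42 values was not tested.

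Tcl1 showed the largest difference of the 10 genes in both contrasts. It lies at 105216750 to 105222793 on the minus strand of chromosome 12 and encodes a coactivator of the kinase AKT. Tcl1 had 3.80 and 5.55 FPKM in KO and 18.9 in WT after LIF removal, against 30.6 and 31.0 in KO and 90.1 in WT with LIF. In each medium both KO libraries lay below WT, and the WT library after removal lay below the KO libraries with LIF. Tcl1 fell by 2.40 after removal (SE 0.15, limma adjusted p = 0.000620).

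Tcl1 was also the only one of the 10 called lower in KO cells, where 4.67% of all tested genes were called lower. The KO libraries held 20.1% and 29.3% of the WT level after LIF removal, and 33.9% and 34.4% with LIF. KO minus WT over both media was -1.67 (SE 0.16, limma adjusted p = 0.00440). The call was lost without either WT library, where the fit again compares genotypes in the other medium only. The difference was then -1.83 without WT with LIF and -1.52 without WT after removal. By the 4-group fit it was -1.83 after LIF removal (adjusted p = 0.0892) and -1.52 with LIF (0.0989). The median KO minus WT difference over the tested genes of chromosome 12 lay between -0.14 and -0.01 in the 4 KO libraries. Neither flanking tested gene was called in either contrast, Glrx5 with -0.06 and Tunar with 0.03 for KO minus WT.

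Of the other TCL1 family genes, Tcl1b1, Tcl1b3, Tcl1b4 and Tcl1b5 are listed at 0 in all 6 libraries, and Tcl1b2 did not exceed 0.405 FPKM. The AKT pathway genes were expressed in every library. Of the 9 tested genes of this list, 1 was called between genotypes: Pik3r1, a regulatory subunit gene of PI3 kinase, was lower in KO cells (-0.72, limma adjusted p = 0.0408), at 1.47 and 1.38 FPKM in KO and 2.74 in WT after removal, against 1.17 and 1.30 in KO and 2.94 in WT with LIF. In KO cells 4.67% of all tested genes were called lower, and the list's median was -0.09 for KO minus WT.

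Tdh encodes threonine dehydrogenase, the mitochondrial enzyme through which mouse ESCs turn threonine into glycine and acetyl-CoA. It lies at 63492347 to 63509092 on the minus strand of chromosome 14. It stood at 117 and 60.7 FPKM in KO and 94.2 in WT after LIF removal, against 160 and 132 in KO and 194 in WT with LIF. The KO libraries lay on either side of WT after removal and both below it with LIF. Tdh fell by 0.86 (SE 0.22, limma adjusted p = 0.0283) after removal. The call was lost without WT with LIF or WT after removal (adjusted p = 0.146 for each), without KO 1 with LIF (0.0864) or without KO 2 after removal (0.0553). It was also lost with no filter on low values (0.0798) and without the intensity trend (0.0503). Between genotypes Tdh had a difference of -0.29 (adjusted p = 0.471).

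Around TDH, 16 genes of threonine, glycine and one-carbon metabolism were tested. After LIF removal 5 were lower and 1 higher, where 12.7% of all tested genes were called lower and 8.73% higher, with a list median of -0.13. Gcat, whose enzyme takes the product of TDH to glycine, fell by 0.77 (limma adjusted p = 0.0104), and the glycine-cleaving decarboxylase Gldc by 0.71 (adjusted p = 0.00524). Shmt2 and the amino acid transporter Slc1a5 were also lower (-0.48 and -0.43). Between genotypes 2 were higher in KO cells, the mitochondrial folate enzyme Mthfd2 (0.77, limma adjusted p = 0.00852) and the methionine adenosyltransferase Mat2a (0.76, adjusted p = 0.0238). Another 2 were lower, Gcat (-0.78, limma adjusted p = 0.0221) and Mthfd1l (-0.60, adjusted p = 0.0148). The list's median between genotypes was -0.26. Over all tested genes 5.79% were called higher in KO cells and 4.67% lower. Whether the level of their chromosomes has a part in the calls of this list was not tested. Gcat stood at 34.8 and 26.5 FPKM in KO and 55.6 in WT after removal, against 62.6 and 47.1 in KO and 89.7 in WT with LIF.

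Pecam1, at 106654217 to 106750628 on the minus strand of chromosome 11, encodes the adhesion molecule CD31, a surface marker of both endothelium and naive mouse ESCs. Its levels were 11.9 and 10.03 FPKM in KO and 7.67 in WT after LIF removal, against 29.4 and 27.0 in KO and 29.0 in WT with LIF. With LIF the 3 libraries were close together, and after removal both KO libraries lay above WT. Pecam1 fell by 1.46 (SE 0.15, limma adjusted p = 0.00129) after removal. KO minus WT was 0.21 over both media (adjusted p = 0.426), -0.24 once each chromosome was centred in each library, and -0.04 without WT after removal.

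Genes of chromosome 11 were higher in KO cells in general. Over its 1004 tested genes, of which 365 were called higher in KO cells and 4 lower, the median KO minus WT difference was 0.42 and 0.48 after removal and 0.45 and 0.47 with LIF. The differences of Pecam1 were 0.57 and 0.35 after removal, and 0.02 and -0.10 with LIF. With LIF, Pecam1 thus lay below the median of its chromosome in both KO libraries. The part of the chromosome's level in the Pecam1 values was not tested.

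**Figure D2:**
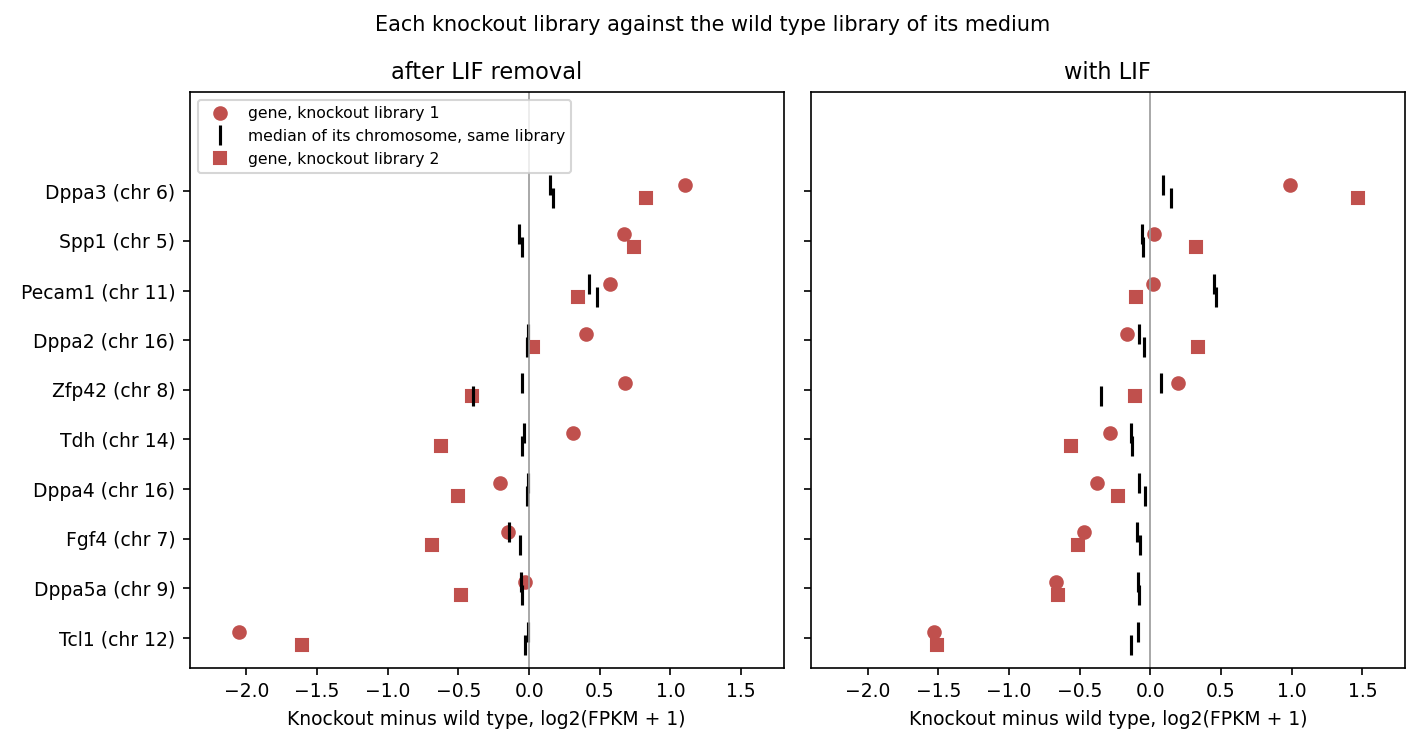
KO minus WT difference of each gene on the log2(FPKM + 1) scale, for each KO library against the WT library of its medium, after LIF removal (left) and with LIF (right). Black ticks mark the median of the gene's chromosome in the same library. Dppa3 and Tcl1 stand apart from their chromosomes in all 4 KO libraries, while chromosome 11, which holds Pecam1, has medians of 0.42 to 0.48.

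Endothelial markers were read beside Pecam1. Of 12 listed, 3 were tested, Emcn was at 0 in all libraries, and the defining genes Cdh5 and Kdr did not exceed 0.0240 and 0.185 FPKM. The list summed to 19.5 and 20.8 FPKM in KO and 21.2 in WT after removal, against 29.6 and 24.1 in KO and 30.0 in WT with LIF, most of it Egfl7. Egfl7 was the 1 gene of the list called after LIF removal (-0.57, limma adjusted p = 0.0305), and none was called between genotypes. Of 9 genes listed beside Pecam1 for cell adhesion or signalling, not all of them known to bind PECAM1, 6 were tested. Of these 2 were lower after LIF removal, the adhesion receptor Icam1 (-1.14, limma adjusted p = 0.00600) and the phosphatase Ptpn6 (-0.60, adjusted p = 0.0356), with a list median of 0.05. Over all tested genes 12.7% were called lower. None of the 6 was called between genotypes, where the median was -0.08.

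Spp1 encodes osteopontin, a secreted matrix protein that binds integrins. It lies at 104435118 to 104441050 on chromosome 5 and held 192 and 201 FPKM in KO and 120 in WT after LIF removal, against 316 and 389 in KO and 311 in WT with LIF. All libraries after removal were below all with LIF, and in each medium both KO libraries lay above WT, KO 1 by little with LIF. Spp1 fell by 1.01 (SE 0.14, limma adjusted p = 0.00313) after removal. KO minus WT was 0.44 (SE 0.15, adjusted p = 0.0921), and without KO 1 with LIF it was 0.54 (adjusted p = 0.0421).

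The SPP1 family genes Ibsp, Dmp1, Dspp and Mepe, which code for bone and tooth matrix proteins, are listed at 0 in all 6 libraries. Of 9 receptor genes, 5 were tested, and their median was 0.03 for LIF removal and -0.38 for KO minus WT. The integrin subunits Itga9 and Itga5 were lower after removal (-0.75 with limma adjusted p = 0.0246, and -0.50 with adjusted p = 0.0385), where 12.7% of all tested genes were called lower. Itga9 was also lower in KO cells (-0.97, adjusted p = 0.0216), at 1.64 and 1.23 FPKM in KO and 3.00 in WT after removal, against 2.82 and 2.44 in KO and 7.49 in WT with LIF. In KO cells 4.67% of all tested genes were called lower. Macrophages make osteopontin too. Of 10 haematopoietic and macrophage markers Lyz2 and Tyrobp were at 0, 1 was tested (Cd68, not called), and the list summed to 9.41 and 13.7 FPKM in KO and 4.55 in WT after removal, against 11.7 and 15.8 in KO and 10.1 in WT with LIF.

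Fgf4, at 144847367 to 144865243 on chromosome 7, encodes the growth factor ESCs secrete and respond to when they leave the naive state. It had 39.7 and 27.0 FPKM in KO and 44.2 in WT after LIF removal, against 77.8 and 75.4 in KO and 108 in WT with LIF. The WT library was the highest in each medium. Fgf4 fell by 1.22 (SE 0.14, limma adjusted p = 0.00193) after removal. KO minus WT was -0.46 (SE 0.15, adjusted p = 0.0950), and -0.58 without KO 1 after removal (adjusted p = 0.0287).

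Of 11 other FGF genes listed, 5 were tested, and 3 of these rose after LIF removal, where 8.73% of all tested genes were called higher. Fgf5, a marker of the formative epiblast, rose by 3.56 (limma adjusted p = 0.00116), Fgf8 by 2.42 (adjusted p = 0.00180) and Fgf13 by 1.46 (adjusted p = 0.00124). Fgf1 was lower (-0.93, limma adjusted p = 0.0393), where 12.7% of all tested genes were called lower, and the list's median was 1.46. Fgf15, which lies 31288 bases from Fgf4, had a difference of 0.07 after removal and was lower in KO cells (-1.71, SE 0.24, limma adjusted p = 0.0108). Its levels were 5.10 and 3.80 FPKM in KO and 21.2 in WT after removal, against 3.78 and 6.59 in KO and 14.7 in WT with LIF. The list's median between genotypes was 0.10, and Fgf15 was its only call there, where 4.67% of all tested genes were called lower.

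The receptor and ERK side of FGF4 signalling was read in 16 tested genes. Of these, 5 were lower and 1 higher in KO cells, where 4.67% of all tested genes were called lower and 5.79% higher, with a median of -0.35 against -0.03 over all tested genes. Fgfr1, the main FGF receptor of ESCs, was lower in KO cells (-0.86, limma adjusted p = 0.00975), with 30.4 and 35.1 FPKM in KO and 60.3 in WT after removal, against 21.9 and 20.5 in KO and 38.9 in WT with LIF. The ERK phosphatase gene Dusp4 (-0.88, limma adjusted p = 0.0111), the feedback inhibitor Spry1 (-0.85, adjusted p = 0.0128) and the ERK1 gene Mapk3 (-0.58, adjusted p = 0.0203) were also lower. The part of the level of the genes' chromosomes in the calls of this list was not tested. Of the 16 differences between genotypes 13 lay below 0 and 3 above, that of Egr1 among the latter. Egr1 stood at 33.1 and 26.8 FPKM in KO and 17.5 in WT after removal, against 32.5 and 20.5 in KO and 10.8 in WT with LIF. After LIF removal 3 genes of this list were higher, Dusp6 (1.27, limma adjusted p = 0.00152), Dusp4 (0.83, adjusted p = 0.00452) and Fgfr1 (0.61, adjusted p = 0.00772), and Mapk3 was lower (-0.48, adjusted p = 0.0173). The list's median after removal was 0.00.

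The LIF removal difference was also taken in each genotype by itself. In KO cells, 2 libraries against 2, limma called 6 of the 10 genes lower, where 3.88% of all tested genes were called lower: Tcl1 (-2.50, adjusted p = 0.0111), Pecam1 (-1.29, 0.0172), Dppa5a (-1.18, 0.0213), Fgf4 (-1.20, 0.0249), Spp1 (-0.83, 0.0265) and Dppa3 (-1.02, 0.0359). Zfp42 (-1.19, adjusted p = 0.0768), Dppa4 (-0.49, 0.0960), Tdh (-0.77, 0.146) and Dppa2 (-0.46, 0.219) did not pass. Leaving a WT library out of the fit over both genotypes gives this same KO contrast. The losses of Dppa4, Zfp42 and Tdh without a WT library are therefore no separate check. Tcl1 and Dppa5a were called whichever KO library was left out. Without KO 2 after removal they were the only 2 genes called, the other 4 lying between 0.0503 for Pecam1 and 0.0976 for Dppa3. Without KO 2 with LIF, Dppa3 (adjusted p = 0.0857) and Spp1 (0.0674) were lost, without KO 1 with LIF Pecam1 (0.0547) and Fgf4 (0.0680), and without KO 1 after removal Spp1 (0.0592), while Zfp42 (0.0195) and Tdh (0.0248) then passed. Without the intensity trend Dppa3 (0.0577) and Spp1 (0.0540) were lost, and with each chromosome centred Zfp42 passed. With no filter on low values none of the 10 was called, and none of 18091 genes.

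In WT cells, 1 library against 1 and with no test, 7 of the 10 genes were at least 1 lower on the log2 scale after LIF removal, as were 4.56% of all tested genes. These were Tcl1 (-2.19), Pecam1 (-1.79), Dppa5a (-1.58), Spp1 (-1.37), Zfp42 (-1.29), Fgf4 (-1.27) and Tdh (-1.04). Dppa3 (-0.75), Dppa2 (-0.59) and Dppa4 (-0.44) changed less. After quantile normalization 5 were at least 1 lower, with Dppa5a at -0.97 and Tdh at -0.95. The median over the 10 was -1.28 in WT cells and -1.10 in KO cells.

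**Figure D3:**
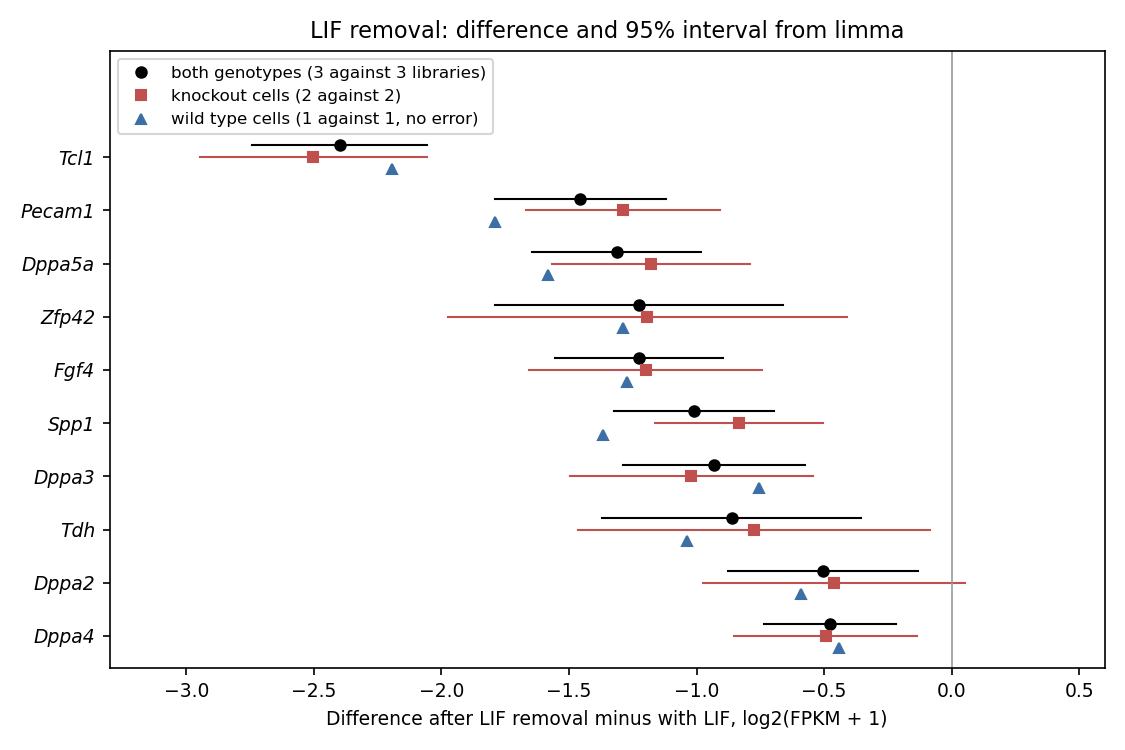
Difference after LIF removal minus with LIF for each gene on the log2(FPKM + 1) scale. Black circles are both genotypes together, red squares KO cells and blue triangles WT cells (1 library against 1, no error); lines are 95% intervals from limma. All points lie below 0, from -2.50 for Tcl1 in KO cells to -0.44 for Dppa4 in WT cells.

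No difference of response between KO and WT cells was detectable. Limma called none of the 10 genes and none of all tested genes for the difference of the responses (0.0% called), and none of the 10 reached an unadjusted p under 0.05, as did 340 of all tested genes. The largest estimate was that of Spp1, 0.53 less fall in KO cells (95% interval -0.04 to 1.10), followed by Pecam1 with 0.50 (-0.16 to 1.16) and Dppa5a with 0.41 (-0.27 to 1.08). Tcl1 had -0.31 (-1.08 to 0.46) and Dppa3 -0.27 (-1.09 to 0.56). The intervals of Spp1, Pecam1 and Dppa5a thus reach above 1, and those of Tcl1 and Dppa3 below -1.

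The level kept after LIF removal, as a percentage of the library with the same number in LIF, ran from 12.5% to 98.4%. Tcl1 kept 12.5% and 17.9% in KO 1 and KO 2 and 21.0% in WT, the least in both KO numbers and in WT. Dppa2 kept 98.4% and 52.6% in KO and 65.5% in WT, and Dppa4 82.6% and 60.4% in KO and 73.4% in WT. The median over the 10 genes was 59.0% in KO 1, 37.3% in KO 2 and 40.8% in WT. KO 2 kept less than KO 1 for 9 genes, all but Tcl1, so the 2 KO libraries lay farther apart than KO 2 and WT at the median.

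**Figure D4:**
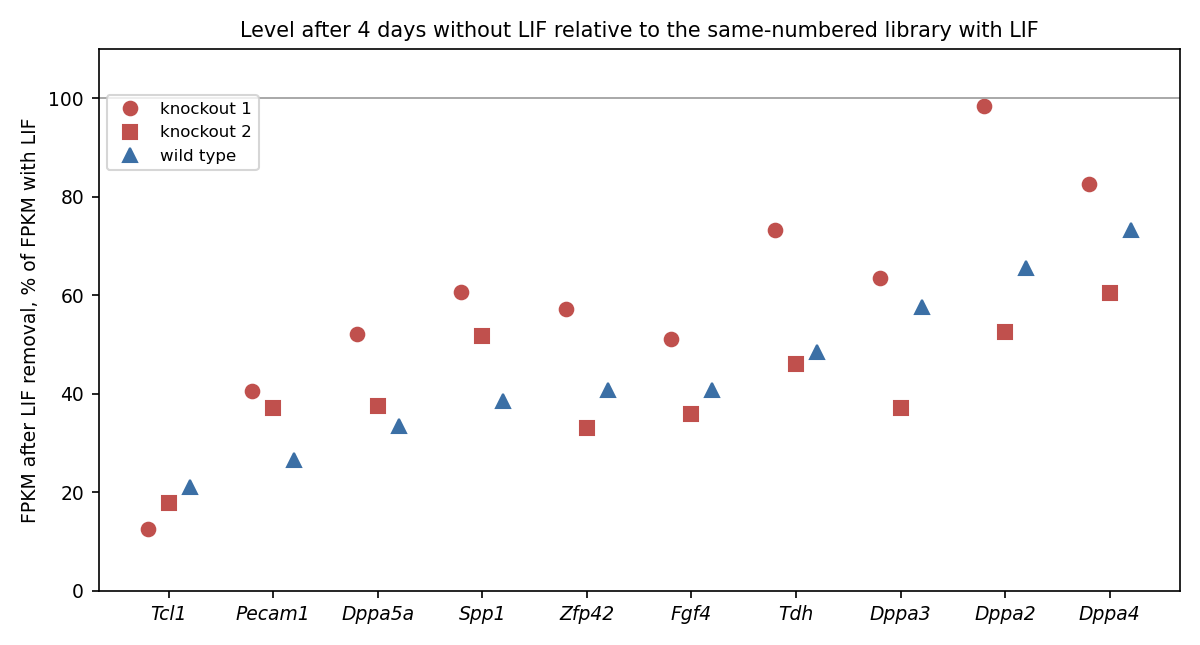
FPKM after LIF removal as a percentage of FPKM with LIF for each gene, in KO 1 (red circles), KO 2 (red squares) and WT (blue triangles), each against the library of the same number, which the labels do not say is the same clone. Genes run from the least kept in WT, Tcl1 at 21.0%, to the most, Dppa4 at 73.4%.

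Markers of other cell types were also read in the 2 KO libraries. After LIF removal KO 2 held, relative to KO 1, 46.8% of the Zfp42 level, 51.9% of Tdh, 68.1% of Fgf4 and 72.8% of Dppa5a. Spp1 stood at 105% and Tcl1 at 146%. With LIF the shares were nearer to equal for some, 81.0% for Zfp42, 82.6% for Tdh, 97.0% for Fgf4 and 101% for Dppa5a. There Spp1 stood at 123% and Tcl1 at 101%. The 10 trophoblast markers, of which 8 were tested and none was at 0 throughout, summed to 151 and 311 FPKM in KO 1 and KO 2 and 115 in WT after removal, against 69.3 and 97.7 in KO and 65.7 in WT with LIF. The 10 primitive endoderm markers, 5 of them tested, summed to 110 and 195 FPKM in KO and 80.6 in WT after removal, against 75.1 and 124 in KO and 46.7 in WT with LIF. Both sums were higher in KO 2 than in KO 1 in each medium. Of the primitive endoderm markers 5 stayed under 1 FPKM in every library, Gata6 and Sox17 among them. Of the trophoblast markers 2 did, Elf5 and Plac1. After removal, most of the trophoblast sum was Krt8 and Krt18, with 51.2 and 65.8 FPKM in KO 1 and 123 and 143 in KO 2, and most of the endoderm sum was Sparc, with 97.3 in KO 1 and 172 in KO 2. After LIF removal limma called 8.73% of all tested genes higher. Among these were 5 trophoblast genes, Krt8 (1.98, limma adjusted p = 0.00536) included. Another 2 were primitive endoderm genes, Dab2 (1.57, limma adjusted p = 0.00693) and Col4a1 (1.43, adjusted p = 0.0121). Between genotypes 5.79% of all tested genes were called higher in KO cells. In KO against WT cells Hand1 (1.11, limma adjusted p = 0.0466) and Sparc (1.03, adjusted p = 0.0426) were the calls of these lists. Whether the level of their chromosomes has a part in these calls was not tested. Of 10 fibroblast markers 2 were tested and none was called, with sums of 8.31 and 10.7 FPKM in KO and 7.16 in WT after removal, against 9.38 and 10.2 in KO and 4.26 in WT with LIF. In bulk RNA fewer cells that express a gene and less RNA per cell cannot be told apart, and the part of these cell types in the results was not tested.

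Within a medium, KO against WT gave no calls among the 10 genes. In LIF, limma called 0.0424% of all tested genes and none of the 10, with 3 of the 10 and 1972 of all tested genes at an unadjusted p under 0.05. After LIF removal it called 0.0594% of all tested genes and none of the 10, with 3 of the 10 and 1826 of all genes under that p. Both KO libraries lay on the same side of WT for 8 of the 10 genes after removal, as for 74.6% of all tested genes, and for 7 with LIF, as for 76.9%, so these counts are near the background. Dppa3 and Spp1 were above WT, and Dppa4, Dppa5a, Tcl1 and Fgf4 below WT, in all 4 KO libraries. Over both media the median of the 10 genes was -0.10, with 5 above 0 and 5 below.

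Naive transcription factors were likewise lower after LIF removal. Of 12 naive transcription factors, 10 were lower and none higher, where 12.7% of all tested genes were called lower and 8.73% higher, with a median of -1.13, including Klf2 (-1.64, limma adjusted p = 0.00136), Nr0b1 (-1.91, adjusted p = 0.00203), Esrrb (-1.77, adjusted p = 0.00230) and Tfcp2l1 (-1.24, adjusted p = 0.00524). None was called in KO against WT, where the median was -0.16 over both media. Within a medium it was 0.16 after removal, with 9 of the 12 above 0, and -0.41 with LIF, with 11 below 0. The difference of responses, KO minus WT, was above 0 for 11 of the 12, with a median of 0.69 against 0.03 over all tested genes, and none was called. Of 20 other ESC-associated genes 13 were lower after removal and none higher, with a median of -0.86, among them Mybl2 (-1.31, limma adjusted p = 0.000923) and the signalling inhibitor Lefty2 (-1.71, adjusted p = 0.00110). In KO against WT 3 of these 20 were higher, Tex19.1 (2.21, limma adjusted p = 0.00731), Zfp57 (0.93, adjusted p = 0.0238) and Eras (0.54, adjusted p = 0.0334), and Fgf17 was lower (-0.73, adjusted p = 0.0311). Between genotypes 5.79% of all tested genes were called higher in KO cells and 4.67% lower. The part of the level of the genes' chromosomes in these calls was not tested. Of 12 formative epiblast genes 5 were higher after removal and none lower, with a median of 0.64, among them Fgf5, Sall2 (1.67, limma adjusted p = 0.00352), Lef1 (1.18, adjusted p = 0.00508) and Sox3 (1.61, adjusted p = 0.0105). None of these 12 was called between genotypes. Their median for KO minus WT was -0.39 after removal, with 10 below 0, and 0.56 with LIF, with 10 above 0. Their difference of responses had a median of -0.82, with 11 of the 12 below 0 and none called. Of 65 listed, neighbouring and pattern-matched genes called after LIF removal over both genotypes, limma called 33 without WT with LIF and 33 without WT after removal.

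For each gene the closest patterns over the 6 libraries were sought among 8458 genes averaging 5 FPKM or more, by Pearson's r of log2(FPKM + 1). Each value rests on 6 points that share the same libraries, and is given as a description. Dppa5a was closest to Sod2 (r = 0.9996) and Mcf2 (0.997), Fgf4 to Gfpt2 (0.998) and Ooep (0.995), and Zfp42 to Pura (0.999) and Ano9 (0.989). Tcl1 was closest to Fau (0.997) and Hcn2 (0.997), which were likewise lower after removal (-0.62 and -0.92, limma adjusted p = 0.00451 and 0.00515) and lower in KO cells (-0.47 and -0.71, adjusted p = 0.0247 and 0.0259). Rabif (0.989) was among the closest to Dppa3 and was not called between genotypes. Tdh was closest to Taf5 (0.999) and Trit1 (0.996), Pecam1 to Chmp2a (0.996) and Zswim1 (0.994), Spp1 to Prim2 (0.995) and Zdhhc24 (0.995), Dppa4 to Gcnt2 (0.990) and Rabggta (0.987), and Dppa2 to Zfp566 (0.995) and Bbs9 (0.992).

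Several of the genes share sequence with pseudogenes, and how fragments were divided among copies is not given. In the GENCODE transcripts, aligned with blastn, Dppa2 was near-identical to transcripts of 6 other genes (at least 90% identity over at least 200 bases), Dppa5a to 10, Dppa3 and Dppa4 to 2 each, and Zfp42 and Tdh to 1 each. The closest were Gm9788 for Dppa2, with 99.3% identity over 906 bases, Gm14058 for Dppa4, with 98.9% over 735, and Dppa3-ps for Dppa3, with 98.2% over 451. Their levels are uncertain to the extent that copies took fragments. Tcl1, Spp1 and Fgf4 had no such match, and the matches of Pecam1 were no longer than 217 bases.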

How the data were processed

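RNA was sequenced as 150 bp paired-end reads per the labels' protocols. The authors deposited FPKM per gene symbol for the 6 libraries. STAR, Cufflinks and mm10 are named in the submitters' processing notes, while the sources used here do not give versions, annotation or strand setting. Read counts were not used, so no counting interval is given. Values were analysed as log2(FPKM + 1), a scale that understates changes of low genes. The 11785 genes averaging 1 FPKM or more were fitted with limma 3.58.1 in R 4.3.3 (two-sided, intensity trend, Benjamini-Hochberg adjustment over all tested genes, threshold 0.05). A fit with additive genotype and medium gave differences over both media or genotypes, and a 4-group fit the others. The fits were tested on simulated data. Genes to name were chosen by rule: the 10 genes, up to 4 called genes of lowest p per list, the nearest tested neighbours and the 2 closest patterns. Some genes these rules select are left out of this text. The 10 genes and the lists were chosen with earlier results of these data known. A few genes outside the rule (Tcl1b genes, Cd68, Cdh5, Kdr, Emcn, Ibsp, Dmp1, Dspp, Mepe, Gata6, Sox17, Elf5, Plac1, Egr1) are named for low levels, as a list's main gene or as moving against their list. Alternatives tried were a pseudocount of 0.1, quantile, median ratio and chromosome-centred scaling, other filters, no trend, each library left out, and a replicate block.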

Additional observations from a re-analysis of the deposited data

How the results depend on the processing

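Of 800 values of the 10 genes recomputed under alternatives, 732 kept their direction and side of the threshold, 36 lost the threshold, 13 gained it and 19 changed sign. LIF removal over both genotypes called 6 to 10 of the 10 genes as single libraries were left out, LIF removal in KO cells 2 to 7, and KO against WT over both media 0 to 4, with 0 without either WT library and 4 without KO 1 after removal. With no filter on low values LIF removal in KO cells called 0. Sign changes came with quantile normalization for Dppa5a (KO against WT 0.032 over both media and 0.063 after removal) and Pecam1 (0.0092 with LIF), and with chromosome centring for Pecam1 over both media (-0.24). The rest came from single libraries, none for a called difference. KO against WT ran with LIF from -0.11 to 0.19 for Zfp42, -0.16 to 0.34 for Dppa2 and -0.098 to 0.018 for Pecam1. Over both media it ran from -0.040 to 0.46 for Pecam1 and -0.15 to 0.32 for Zfp42, and after removal from -0.41 to 0.68 for Zfp42 and -0.62 to 0.31 for Tdh. The difference of responses ran from -0.12 to 0.38 for Dppa2, -0.20 to 0.10 for Dppa4, -0.45 to 0.64 for Zfp42, -0.20 to 0.73 for Tdh and -0.20 to 0.34 for Fgf4. The cause of these changes was not tested. The KO numbers are shared across media but not said to pair the libraries: KO 1 minus KO 2 correlated between media with r = 0.366 over 11785 genes. With the replicate block, LIF removal called 10 of the 10 genes over both genotypes, Dppa2 among them, and 9 in KO cells, with Zfp42, Dppa4 and Tdh added. The number of all genes called for KO against WT over both media was 1232, and 7 and 5 without the WT library in LIF and after removal, 335 with no filter and 724 with chromosome centring. Without a WT library, KO against WT over both media compares genotypes in the other medium only. LIF removal over both genotypes then rests on KO libraries only. Calls lost that way repeat the within-medium and KO-cell fits. Low replication (1 WT library per medium) and unknown read counts limit all values.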
